A study of Mus musculus with 27 samples.

Results

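Myokines are proteins that muscle fibres release and that act on the fibre itself or on other tissues. The genes described here are 9 that encode such factors: Il6, Lif, Il15, Fgf2, Bdnf, Metrnl, Fndc5, Apln and Ostn. They were chosen by symbol, through their Ensembl identifiers, from the 20446 genes of the count table, and 8 of the 9 had enough reads to be tested. Ostn did not, and its reads are given as counts.

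The cells were C2C12, an immortalised line of mouse myoblasts that fuse into multinucleated myotubes in low serum. All 9 groups had the same history: growth in 10% fetal bovine serum (FBS), plating at 50000 cells per well, differentiation in 2% horse serum, and a 2 h pulse of 50% horse serum, which sets the circadian clocks of cultured cells to a common phase. The groups differ only in the hour of collection, which was 12, 18, 24, 30, 36, 42, 48, 54 or 60 h after the pulse, with 3 libraries at each hour. No genetic change or drug separates them, and no culture without the pulse was included, so a change with time cannot be told apart from one that the culture would have made without it. A single cell line also holds no motor neurons, vessels or immune cells, to which several of these factors signal in muscle.

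IL-6 and LIF are cytokines of the gp130 family: each binds its own receptor chain and then the shared chain gp130, which activates the kinases of the JAK family and the transcription factor STAT3. In muscle, IL-6 and LIF are released on contraction and injury and act on satellite cells, the stem cells of the fibre. FGF2 and BDNF signal through receptor tyrosine kinases, apelin through a G protein-coupled receptor, and osteocrin by occupying the clearance receptor for natriuretic peptides, while irisin is cut from the membrane protein that Fndc5 encodes.

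Depth was 15.2 to 26.6 M counted reads per library, and 12687 genes were tested. The 10 myotube markers were all tested and together held 17900 to 21100 CPM (read counts scaled to library size with TMM factors) in every library. Along a linear trend over time 3 of these 10 changed (edgeR, highest adjusted p = 0.0099): Myog, a factor of early differentiation, fell from 744 ± 11.4 CPM at 12 h to 420 ± 30.1 at 60 h (SD, n = 3), and the myosin heavy chain genes Myh1 (1700 ± 79.2 to 2610 ± 79.6) and Myh3 (2740 ± 105 to 3130 ± 133) rose. These markers thus moved with the same hours as the genes described here, and their part in the results was not tested. Markers of other cells were at or near 0: the 7 immune markers summed to at most 3.11 CPM with Cd3e at 0, the 4 endothelial markers to at most 1.55, the 5 neural and glial markers to at most 1.44 with Snap25 at 0, and the 3 adipocyte markers to at most 0.0891 with Cidec at 0. The 4 proliferation markers summed to mean CPM of 608 at 12 h, 895 at 18 h and 687 at 60 h, and the 4 markers of myoblasts and reserve cells to 174 CPM at 12 h and 153 at 60 h. From 12 to 60 h Mki67 and Ccnb1 rose (edgeR adjusted p = 0.028 and 0.024), while Top2a and Cdk1 were not called. Cd34 fell from 62.6 CPM at 12 h to 39.7 at 60 h (edgeR trend, adjusted p = 0.00517), while the trends of Pax7, Myf5 and Myod1 were not called. In bulk RNA, more cells of a type and more RNA per cell cannot be told apart. Whether the 3 libraries of a time point came from separate cultures is not given, so each p-value measures the spread between libraries, which may be technical.

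The sequences before the start of Il6 and Lif, the 2 genes of this cytokine family, and of Fndc5, the 1 gene that fell, are shown to set the cytokines beside it. They come from RefSeq on GRCm38.p6 (that of Lif stops where the GENCODE gene begins), read 5′ to 3′ on the plus strand. Capitals mark matches, on either strand, to the AP-1 site TGANTCA, the kappa B motif bound by NF-kappa B, or the core ACGTG of the hypoxia response element.
Il6, chr5:30012864-30013113: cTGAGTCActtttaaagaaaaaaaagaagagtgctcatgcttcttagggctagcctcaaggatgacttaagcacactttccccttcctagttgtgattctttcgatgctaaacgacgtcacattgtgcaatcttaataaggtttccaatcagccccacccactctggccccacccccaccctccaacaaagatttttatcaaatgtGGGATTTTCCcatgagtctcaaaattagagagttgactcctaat
Lif, chr11:4257318-4257556: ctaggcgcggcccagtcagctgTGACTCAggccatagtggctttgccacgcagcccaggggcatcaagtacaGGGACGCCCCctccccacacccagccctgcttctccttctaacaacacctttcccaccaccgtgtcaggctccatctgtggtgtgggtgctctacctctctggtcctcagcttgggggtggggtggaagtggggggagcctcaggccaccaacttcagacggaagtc
Fndc5, chr4:129136749-129136998: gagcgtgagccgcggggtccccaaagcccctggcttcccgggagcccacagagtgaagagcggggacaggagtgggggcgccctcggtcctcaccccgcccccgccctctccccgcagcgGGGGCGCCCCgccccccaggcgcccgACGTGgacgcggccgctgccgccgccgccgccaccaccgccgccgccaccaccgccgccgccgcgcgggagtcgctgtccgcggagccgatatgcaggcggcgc
Il6 and Lif each hold an AP-1 match, 249 to 243 bases before the start of Il6 and 228 to 222 before that of Lif, counted from the RefSeq start. Each also holds a kappa B match, at 44 to 35 bases for Il6 and 178 to 169 for Lif, none overlapping another motif. Fndc5 has no AP-1 match but a kappa B match at 130 to 121 bases and the core ACGTG at 104 to 100. Among 32851 promoters of 250 bases, 6.75% hold TGANTCA, 7.25% the kappa B motif and 16.6% ACGTG, so a match is a description of the letters and not a bound site. The 250 bases before Apln held no match to any of these motifs. They also held none to the E-box (CACGTG), the cyclic AMP response element (TGACGTCA), the STAT site (TTCNNNGAA), the TATA box (TATAAA) or the CArG box of serum response factor, which 6.02%, 1.55%, 7.02%, 12.4% and 1.47% of the promoters hold. Those before Fgf2 and Metrnl, which both rose, held no match to any of these motifs either. Their RefSeq starts, however, lie 307 and 883 bases inside the GENCODE gene. Before several RefSeq starts of Bdnf, which also rose, there were matches to AP-1, kappa B, STAT or ACGTG. A link between these motifs and a rise or fall was not tested.

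The 9 genes stood at very different levels per length of transcript. On this scale (CPM per kb of exon, mean of 27 libraries), Metrnl stood at 31.6, above 87.2% of the tested genes. Fgf2 stood at 9.01, Fndc5 at 6.14, Bdnf at 5.48 and Lif at 2.84, while Il6 was at 1.03, Il15 at 0.992, Apln at 0.55 and Ostn at 0.0867. The ranges over the 27 libraries were 19.4 to 41.2 for Metrnl and 5.4 to 11.4 for Fgf2, so these did not overlap. Those of Fndc5 (4.48 to 8.1) and Bdnf (4.23 to 7.08) overlapped, as did those of Il6 (0.679 to 1.67) and Il15 (0.616 to 1.55).

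**Figure D1:**
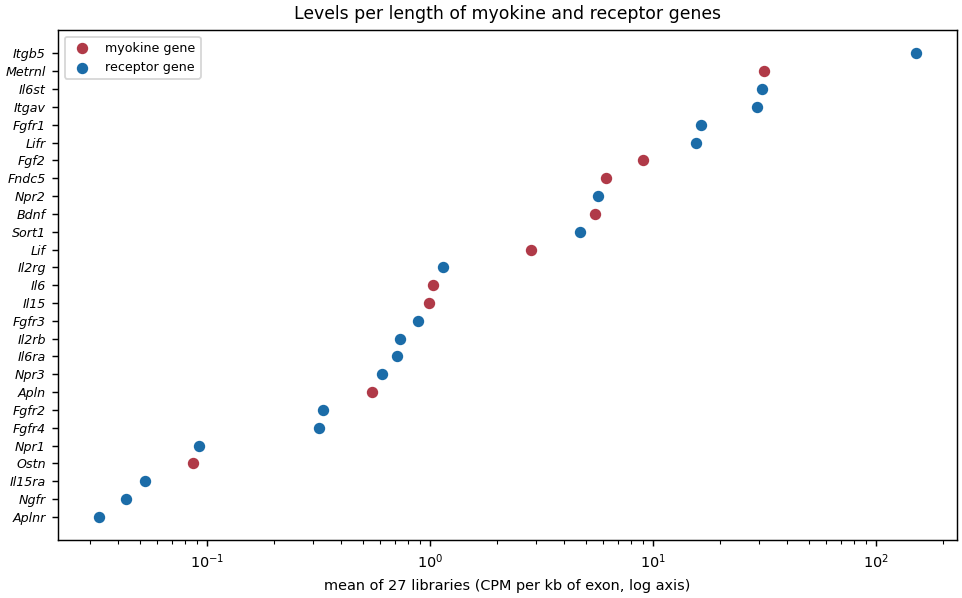
Mean level of each myokine gene and of the receptor genes with at least 1 read, in CPM per kb of exon on a log axis; each point is the mean of 27 libraries. Metrnl, at 31.6, is the highest myokine gene and Ostn, at 0.0867, the lowest.

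Of the 8 tested genes, 6 changed over time in one shape or another: Lif, Bdnf, Fgf2, Fndc5, Metrnl and Apln (edgeR quasi-likelihood F test over the 9 time points, Benjamini-Hochberg adjustment across every tested gene, threshold 0.05). The background is that 18.4% of all tested genes were called. Between 12 and 60 h, 5 genes rose (Il6, Lif, Bdnf, Fgf2 and Metrnl) and 1 fell (Fndc5), where 9.48% of all tested genes rose and 6.54% fell. A linear trend across all time points (given as a log2 change per 48 h) called the same 5 up and the same 1 down, where the background is 10.7% up and 8.69% down. The median trend was 0.57 over the 8 genes and -0.01 over all genes tested, with quartiles of -0.14 and 0.13. The libraries of 12 and 60 h did not overlap for 6 of the 8 tested genes, all but Il6 and Il15, against 32.2% of all tested genes.

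**Figure D2:**
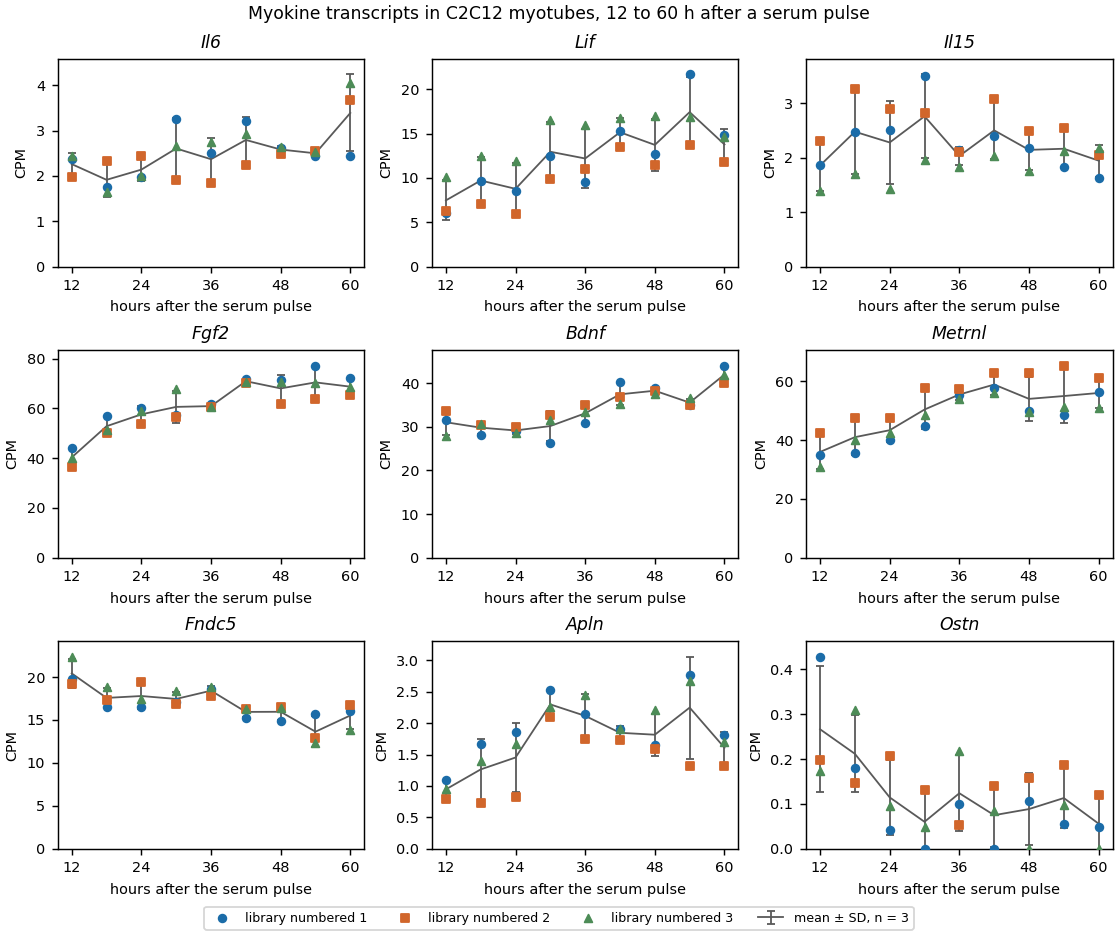
Level of each of the 9 genes in CPM against hours after the serum pulse; symbols are single libraries by their number, and the line gives the mean ± SD of 3 libraries. The means of Fgf2 and Metrnl are highest at 42 h and that of Bdnf at 60 h, and Fndc5 declines from 20.4 CPM at 12 h to 15.5 at 60 h.

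Lif, which encodes leukemia inhibitory factor (ENSMUSG00000034394, mm10, chromosome 11 from 4257557 to 4272514), had the largest fitted linear rise of the 8 genes. The 3 libraries held 6.08, 6.26 and 10.1 CPM at 12 h, 9.68, 7.02 and 12.4 at 18 h, and 8.50, 5.95 and 11.9 at 24 h. They held 12.5, 9.91 and 16.5 CPM at 30 h, 9.56, 11.0 and 16.0 at 36 h, and 15.3, 13.4 and 16.7 at 42 h. Later values were 12.7, 11.5 and 17.0 CPM at 48 h, 21.7, 13.7 and 16.9 at 54 h, and 14.9, 11.8 and 14.7 at 60 h. All libraries of 12 h lay below all of 60 h, while each time point overlapped its neighbour when the time points were ranked by mean. Mean Lif was 7.47 ± 2.25 CPM at 12 h and 13.8 ± 1.73 at 60 h (SD, n = 3). This rise was 0.88 ± 0.27 in log2 (SE; edgeR adjusted p = 0.0277). Its trend was 0.99 ± 0.22 (adjusted p = 0.00166).

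The call of Lif rests in part on single libraries. The 60 h against 12 h change was not called without the first or the second library of 12 h (adjusted p = 0.132 and 0.12) nor without the first (0.093) or the third (0.0868) of 60 h. Change of any shape was not called without the first or the second library of 12 h (0.0789 and 0.0754) or the first of 54 h (0.0545). The trend was called whichever single library was left out, and was 0.81 without all 3 libraries of 12 h, then not called (adjusted p = 0.0571).

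Il6 (ENSMUSG00000025746, chromosome 5 from 30013114 to 30019981) was far less abundant than Lif, at 29 to 92 reads per library. Its libraries held 2.38, 1.97 and 2.44 CPM at 12 h, 1.76, 2.34 and 1.65 at 18 h, and 1.98, 2.43 and 2.01 at 24 h. They held 3.26, 1.9 and 2.66 CPM at 30 h, 2.50, 1.85 and 2.75 at 36 h, and 3.22, 2.24 and 2.93 at 42 h. At 48 h they held 2.62, 2.49 and 2.64 CPM, at 54 h 2.43, 2.55 and 2.52, and at 60 h 2.43, 3.69 and 4.05. The first library of 60 h thus lay within the range of 12 h, and the other two were the highest of the 27.

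The log2 change of Il6 from 12 to 60 h was 0.58 ± 0.20 (SE; edgeR adjusted p = 0.0485), close to the threshold. It was called in 7 of the 27 fits that left out 1 library, and in the other 20 the adjusted p was 0.052 to 0.25. Its trend was 0.55 ± 0.16 (adjusted p = 0.0134) and was lost without the third library of 60 h (0.45, adjusted p = 0.0576) or without the 12 h libraries (0.64, 0.0626). Within library numbers the change from 12 to 60 h was 0.03, 0.87 and 0.71.

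Il15 encodes interleukin 15, a cytokine that acts on lymphocytes and that muscle makes (ENSMUSG00000031712, chromosome 8 from 82331632 to 82403222). Its mean was lowest at 12 h, at 1.86 ± 0.462 CPM (SD, n = 3), and highest at 30 h, at 2.76 ± 0.769. The libraries of these 2 time points overlapped, at 1.87, 2.32 and 1.39 CPM against 3.50, 2.82 and 1.97. No test called Il15: its log2 change from 12 to 60 h was 0.08 ± 0.27 (SE; edgeR adjusted p = 0.911) and its trend -0.08 ± 0.21 (adjusted p = 0.839).

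Fgf2, basic fibroblast growth factor, a mitogen of myoblasts and satellite cells (ENSMUSG00000037225, chromosome 3 from 37348346 to 37410108), had its lowest mean at 12 h and its highest at 42 h. Its libraries held 44.2, 36.6 and 40.1 CPM at 12 h, 57, 50.2 and 51.2 at 18 h, and 60.2, 53.7 and 58.8 at 24 h. They held 57.1, 56.7 and 67.9 CPM at 30 h, 61.7, 60.4 and 60.5 at 36 h, and 71.8, 70.3 and 70.6 at 42 h. Later values were 71.5, 61.9 and 70.6 CPM at 48 h, 77.2, 63.7 and 70.3 at 54 h, and 72.0, 65.3 and 68.8 at 60 h. The 12 h libraries lay below every other library of the series, and the ranks of the means ran 42, 54, 60, 48, 36, 30, 24, 18 and 12 h from the top. Neighbours in that order overlapped in 6 of 8 cases, all but 48 and 36 h and 18 and 12 h.

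The log2 change of Fgf2 from 12 to 60 h was 0.77 ± 0.09 (SE; edgeR adjusted p = 6.35e-07). The first step, from 12 to 18 h, made up 0.39 ± 0.09 of it (adjusted p = 0.00717), where 2.78% of all tested genes rose. This was the 1 step of 6 h at which any of the 8 genes was called. No gene was called at it without the second library of 12 h or without the first of 18 h. Across the 7 later steps, 0 of the 56 pairs of gene and step were called by edgeR (lowest adjusted p = 0.528) and 8 had an unadjusted p under 0.05, where 0.536% of all pairs were called.

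Exons of Fgf2 share 640 bases with those of Nudt6 on the opposite strand, and the strand setting of the counting is not given. Nudt6, which encodes a Nudix hydrolase antisense to Fgf2, averaged 6.4 CPM against 61.1 for Fgf2. It stood at 6.83 ± 0.676 CPM (SD, n = 3) at 12 h and 7.04 ± 0.324 at 60 h, with a trend of 0.11 ± 0.13 (SE; edgeR adjusted p = 0.619). Gm43439, a processed transcript on the same strand as Fgf2, shares 255 exonic bases with it and was not among the genes counted.

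Bdnf, brain-derived neurotrophic factor, which muscle makes on contraction and which supports neurons (ENSMUSG00000048482, chromosome 2 from 109674700 to 109727007), had its highest mean at 60 h. Its libraries held 31.6, 33.6 and 27.9 CPM at 12 h, 28.2, 30.5 and 30.7 at 18 h, and 28.9, 30.0 and 28.6 at 24 h. They held 26.3, 32.6 and 31.6 CPM at 30 h, 30.8, 35.1 and 33.4 at 36 h, and 40.2, 36.8 and 35.3 at 42 h. At 48 h they held 39.0, 38.3 and 37.5 CPM, at 54 h 35, 35 and 36.5, and at 60 h 44.0, 40 and 41.9. The 3 libraries of 60 h exceeded all others but 1, the first of 42 h, and neighbours in the ranking of means overlapped in 7 of 8 cases, all but 60 and 48 h. From 12 to 60 h the log2 change was 0.44 ± 0.08 (SE; edgeR adjusted p = 0.000421), and the trend was 0.52 ± 0.07 (adjusted p = 1.87e-06). An antisense gene, Gm45346, shares 896 exonic bases with Bdnf and was not among the genes counted.

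Metrnl, meteorin-like, a secreted factor released by exercised muscle and by adipose tissue in cold (ENSMUSG00000039208, chromosome 11 from 121701544 to 121716306), likewise had its lowest mean at 12 h and its highest at 42 h. Its libraries held 34.8, 42.4 and 30.7 CPM at 12 h, 35.6, 47.5 and 39.9 at 18 h, and 40.1, 47.6 and 42.4 at 24 h. They held 44.8, 57.8 and 48.7 CPM at 30 h, 55.2, 57.5 and 53.9 at 36 h, and 57.7, 62.9 and 56.1 at 42 h. At 48 h they held 50.0, 62.8 and 49.4 CPM, at 54 h 48.5, 65.4 and 51.1, and at 60 h 56.2, 61 and 50.9. The second library was the highest of the 3 at all 9 time points, and neighbours in the ranking of means overlapped in 8 of 8 cases. The log2 change from 12 to 60 h was 0.64 ± 0.14 (SE; edgeR adjusted p = 0.00146), and the trend was 0.64 ± 0.12 (adjusted p = 0.000213).

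Fndc5, the membrane precursor of irisin (ENSMUSG00000001334, chromosome 4 from 129136999 to 129144593), was the 1 gene of the 8 that fell. Its libraries held 19.7, 19.2 and 22.4 CPM at 12 h, 16.5, 17.4 and 18.9 at 18 h, and 16.5, 19.4 and 17.5 at 24 h. They held 17.1, 16.9 and 18.4 CPM at 30 h, 18.6, 17.8 and 18.9 at 36 h, and 15.2, 16.3 and 16.3 at 42 h. Values of 14.9, 16.5 and 16.4 CPM followed at 48 h, 15.7, 12.9 and 12.4 at 54 h, and 16.1, 16.7 and 13.8 at 60 h. From 42 h on no library held more than 16.7 CPM, and before 42 h none held less than 16.5. Neighbours in the ranking of means overlapped in 6 of 8 cases, all but 12 and 36 h and 30 and 48 h. The log2 change from 12 to 60 h was -0.40 ± 0.10 (SE; edgeR adjusted p = 0.00517), and the trend was -0.41 ± 0.08 (adjusted p = 0.000445). Change of any shape was called for Fndc5, but not without the 12 h libraries (adjusted p = 0.0519).

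Apln, apelin, a peptide hormone of muscle, adipose tissue and endothelium (ENSMUSG00000037010, chromosome X from 48025146 to 48034853), had its lowest mean at 12 h and its highest at 30 h and 54 h. Its libraries held 1.09, 0.789 and 0.958 CPM at 12 h, 1.67, 0.731 and 1.39 at 18 h, and 1.86, 0.828 and 1.67 at 24 h. They held 2.53, 2.10 and 2.26 CPM at 30 h, 2.15, 1.75 and 2.45 at 36 h, and 1.9, 1.73 and 1.91 at 42 h. At 48 h they held 1.66, 1.59 and 2.20 CPM, at 54 h 2.76, 1.31 and 2.67, and at 60 h 1.81, 1.32 and 1.69. All libraries of 30 h and 36 h lay above all of 12 h, and the 2 highest of the 27 were at 54 h.

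Change of any shape was called for Apln, with a log2 range of 1.27 between the highest and lowest fitted means (edgeR adjusted p = 0.0401). With 15 to 56 reads per library this call is fragile: it held in 8 of the 27 fits that left out 1 library, and in the other 19 the adjusted p was 0.0521 to 0.134. limma-voom did not call it either (0.0647). The change from 12 to 60 h, 0.74 ± 0.31 (SE; edgeR adjusted p = 0.118), and the trend, 0.59 ± 0.27 (adjusted p = 0.127), were not called.

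Ostn, osteocrin, a peptide of bone and muscle that is related to natriuretic peptides (ENSMUSG00000052276, chromosome 16 from 27307489 to 27351212), held 72 reads in all 27 libraries. The 3 libraries of 12 h had 11, 4 and 4 reads, the other 24 had 0 to 6 with a median of 2, and 4 libraries had none. Pooled over the 3 libraries, the level was 0.276 CPM at 12 h (95% exact Poisson interval 0.166 to 0.431) and 0.0585 at 60 h (0.0159 to 0.15), intervals that cover counting error only. In a fit of 16729 genes without the filter on low counts, its log2 change from 12 to 60 h was -2.13 ± 0.83 (SE; edgeR adjusted p = 0.115), which was not called.

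Changes from 12 to 36 h and from 36 to 60 h were also tested, each as a contrast in the fit of all 27 libraries. The time points between enter the estimate of the spread but not these changes. With 36 h as the middle point (chosen after the data were seen), 3 of the 8 genes were called between 12 and 36 h, where 16.0% of all tested genes were called. These were Fgf2 (log2 change 0.60, edgeR adjusted p = 2.33e-05), Metrnl (0.63, adjusted p = 0.00181) and Apln (1.15, adjusted p = 0.00976). Lif, at 0.71, was not called (0.0819), though DESeq2 did call it (0.0466). The call of Apln was lost without the second library of 12 h (1.04, adjusted p = 0.0501) or the third of 36 h (1.02, 0.0585). Between 36 and 60 h Bdnf alone was called, at 0.34 ± 0.08 (SE; edgeR adjusted p = 0.0427), where 0.875% of all tested genes were. Bdnf had changed by 0.09 from 12 to 36 h (adjusted p = 0.53). That late call of Bdnf held in 14 of the 27 fits that left out 1 library, with an adjusted p of 0.0502 to 0.23 in the other 13.

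A test of the difference itself, the change from 36 to 60 h minus that from 12 to 36 h, called 0 of the 8 genes in edgeR, with 3 at an unadjusted p under 0.05, where 6.75% of all tested genes were called. The differences were -1.56 ± 0.50 for Apln (SE; edgeR adjusted p = 0.0658), -0.61 ± 0.23 for Metrnl (0.133), -0.42 ± 0.15 for Fgf2 (0.105) and 0.25 ± 0.14 for Bdnf (0.41). DESeq2 called that of Apln (adjusted p = 0.046). With the library number as a block, edgeR called Metrnl (-0.63, adjusted p = 0.000354), Apln (-1.55, 0.00362) and Fgf2 (-0.42, 0.00687). The early and late changes share the 36 h libraries, whose error enters both with opposite sign.

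**Figure D3:**
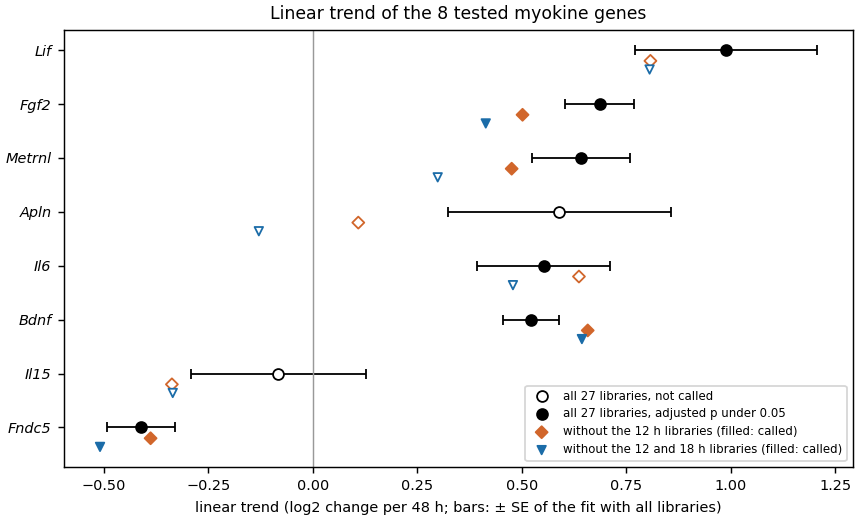
Linear trend of the 8 tested genes in log2 change per 48 h, with all libraries (black, bars ± SE), without the 12 h libraries (diamonds) and without those of 12 and 18 h (triangles); filled symbols passed the test. Bdnf, Fgf2 and Fndc5 stay filled in all 3 fits, at 0.64, 0.41 and -0.51 without the 12 and 18 h libraries.

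Trends were also fitted without the first time points. Without the 12 h libraries the trend was called for 4 of the 8 genes in place of 6, at 0.50 for Fgf2 (edgeR adjusted p = 0.000408), 0.48 for Metrnl (0.0257), 0.66 for Bdnf (1.76e-06) and -0.39 for Fndc5 (0.0188). Without the libraries of 12 and 18 h, an alternative chosen after the data were seen, the trend of Metrnl was 0.30 and not called (adjusted p = 0.284). Fgf2 at 0.41 (0.0146), Bdnf at 0.64 and Fndc5 at -0.51 (0.0126) were still called. The trend of Apln was 0.11 without the 12 h libraries (adjusted p = 0.912).

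Since the study is about circadian control, each gene was tested for a 24 h wave beside its trend. None of the 8 was called by edgeR (lowest adjusted p = 0.922), nor by DESeq2 or limma-voom, and 2 had an unadjusted p under 0.05, where 0.0552% of all tested genes were called. These were Fgf2, with a fitted peak-to-trough log2 difference of 0.21 ± 0.07, and Bdnf, with 0.18 ± 0.06 (SE). In that test, edgeR gave them unadjusted p-values of 0.0209 and 0.0325. An alternation between successive time points was also tested, as a term fitted beside the trend and the wave. It is given as the fitted log2 level at 12, 24, 36, 48 and 60 h minus that at 18, 30, 42 and 54 h. This alternation was called for 0 of the 8 genes by edgeR (lowest adjusted p = 0.375), DESeq2 and limma-voom, with 4 at an unadjusted p under 0.05, where 0.772% of all tested genes were called. Lif had the largest, -0.31 ± 0.12 on the log2 scale (adjusted p = 0.375). Its means were higher at 18, 30, 42 and 54 h than at the time points before and after, though the libraries of each such pair of neighbours overlap.

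**Figure D4:**
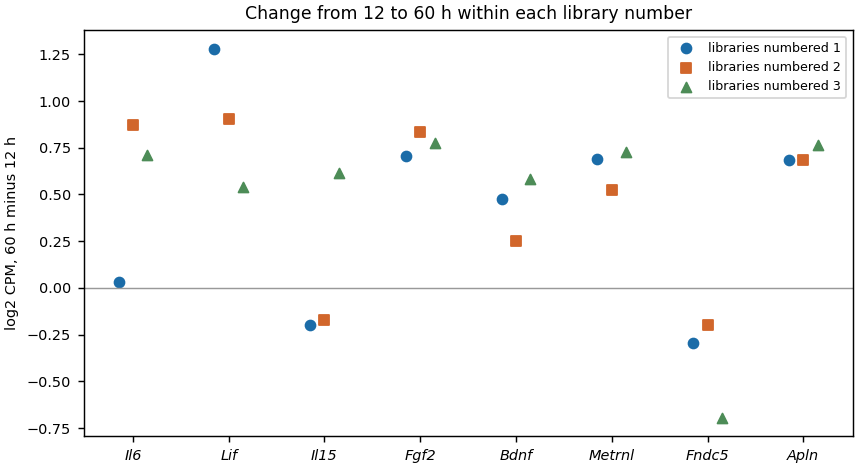
Change in log2 CPM from 12 h to 60 h for the pair of libraries that carry the same number, for the 8 tested genes. Il6, Lif, Bdnf, Fgf2, Metrnl and Apln lie above 0 and Fndc5 below 0 in all 3 numbers, and Il15 lies on both sides.

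Libraries carry the numbers 1 to 3 at each time point, and several of the 9 genes differed by number. The library numbered 2 was the lowest of the 3 at 9 of 9 time points for Fgf2 and for Apln, the highest at 9 of 9 for Metrnl and the lowest at 7 of 9 for Lif. The library numbered 3 was the highest at 7 of 9 for Lif and the lowest at 7 of 9 for Il15. Within the numbers, the change from 12 to 60 h was 0.70, 0.83 and 0.78 for Fgf2, 1.28, 0.90 and 0.54 for Lif, and 0.48, 0.25 and 0.58 for Bdnf. It was 0.69, 0.52 and 0.73 for Metrnl, 0.69, 0.68 and 0.76 for Apln and -0.29, -0.20 and -0.69 for Fndc5. In fits without the 9 libraries of a number, added after the data were seen, the change of Metrnl from 12 to 60 h was 0.61 without number 1 and 0.60 without number 3, and was not called (edgeR adjusted p = 0.0722 and 0.0607). That of Fndc5 was -0.25 without number 3 (0.221), and that of Bdnf 0.37 (0.0509), neither called. The change of Lif was 0.69 without number 1 and not called (0.407), nor was its trend (0.82, adjusted p = 0.0839). Change of any shape was not called for Metrnl without number 1 or 3 (0.267 and 0.169), for Fndc5 without number 2 or 3 (0.0625 and 0.244) or for Bdnf without number 1 (0.0516). Nor was it called for Lif without number 1 or 2 (0.81 and 0.0573) or for Apln without number 1 or 3 (0.436 and 0.564). The change of Il6 from 12 to 60 h was not called without number 1, 2 or 3 (0.0656, 0.24 and 0.345). Its trend was not called without number 2 or 3 (0.0902 and 0.159). Without number 2 the change of Apln from 12 to 60 h was called (0.77, 0.0443). Fgf2 was called in all of these fits. What the numbers stand for is not given, and their part in the levels was not tested.

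Of 20 genes for receptors of these factors 15 were tested, and 4 changed over time: Npr3, Il6ra, Fgfr2 and Itgb5. Along the trend 3 rose (Npr3, Itgav and Itgb5) and 2 fell (Il6ra and Il2rg), with a list median of 0.09. Of all tested genes 18.4% changed over time, and 10.7% rose and 8.69% fell along the trend. Il6st, which encodes gp130, the chain that IL-6 and LIF share, averaged 343 CPM with a trend of 0.02 ± 0.05 (SE; edgeR adjusted p = 0.838), and Lifr, the chain specific to LIF in this pair, averaged 168 CPM, with a trend of 0.28 ± 0.21 (adjusted p = 0.395). Lifr had means of 108 ± 22.7 CPM at 12 h and 169 ± 21.5 at 60 h (SD, n = 3). This change of 0.65 ± 0.24 in log2 was not called (SE; edgeR adjusted p = 0.0685). Il6ra, the chain specific to IL-6, averaged 6.13 CPM and had a trend of -0.50 ± 0.13 (adjusted p = 0.00874), though its change from 12 to 60 h was -0.15 (adjusted p = 0.585).

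Receptors for FGF2 and irisin were present, while TrkB, through which mature BDNF signals, and the apelin receptor were at or near 0. Fgfr1 averaged 163 CPM and was not called (trend 0.18 ± 0.10, SE, edgeR adjusted p = 0.231), and Fgfr2, at 3.41 CPM, changed over time (edgeR adjusted p = 0.00999) without a trend (0.09, adjusted p = 0.822). That change of Fgfr2 was not called without the 12 h libraries (0.126). Itgav and Itgb5, the integrin chains to which irisin is known to bind, averaged 314 and 538 CPM and rose along the trend by 0.23 ± 0.06 and 0.20 ± 0.06 (SE; edgeR adjusted p = 0.00918 and 0.0107). Leaving out 12 h, the trend of Itgb5 was 0.14, which was not called (0.272). Ntrk2, the BDNF receptor TrkB, and Kit, reported as a receptor for METRNL, had 0 reads in the 27 libraries, which at 575 M reads in all allows up to 0.00522 CPM (3 counts). Sort1, sortilin, which binds the precursor proBDNF, averaged 35.7 CPM and was not called (trend 0.03 ± 0.14, SE, edgeR adjusted p = 0.928). Aplnr, the apelin receptor, averaged 0.122 CPM and Il15ra 0.235, neither tested. Npr3, to which osteocrin binds, averaged 5.71 CPM and changed over time (edgeR adjusted p = 3.12e-05), with a trend of 0.52 ± 0.18 (adjusted p = 0.0479) but a change from 12 to 60 h of -0.04 (adjusted p = 0.916). The trend of Npr3 was lost in 21 of 27 fits that left out 1 library (adjusted p = 0.0522 to 0.0802).

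Of 12 genes that carry or dampen the JAK-STAT signal, all tested, 2 changed over time and 4 had a rising trend, with a list median of 0.03. The shares over all tested genes were 18.4% and 10.7%. Osmr, a receptor chain that pairs with gp130, had means of 95.7 ± 2.49 CPM at 12 h and 118 ± 2.04 at 60 h (SD, n = 3), with a trend of 0.27 ± 0.06 (SE; edgeR adjusted p = 0.00109). Stat5b had a trend of 0.27 ± 0.06 (adjusted p = 0.00171), and 0.23 in the fit that left out 12 h, where it was not called (0.0636). The other two were Stat3, at 0.13 ± 0.05 (adjusted p = 0.0471), and Socs3, the feedback inhibitor that STAT3 induces, at 0.22 ± 0.07 (0.0185). Jak1 and Jak2 had trends of -0.09 and 0.03 and were not called (adjusted p = 0.2 and 0.84).

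Among other secreted factors and relatives of these genes, 19 of 25 symbols (1 of them an older name of another) were tested, 11 changed over time, and along the trend 6 rose and 3 fell, with a list median of 0.20. The shares over all tested genes were 18.4%, 10.7% and 8.69%. Hgf, hepatocyte growth factor, which activates satellite cells, had means of 56.3 ± 2.07 CPM at 12 h and 25.5 ± 0.491 at 60 h (SD, n = 3), with a trend of -1.23 ± 0.15 (SE; edgeR adjusted p = 6.72e-07). Angptl4, an inhibitor of lipoprotein lipase, fell by 0.68 along the trend (adjusted p = 0.000317), and by 0.37 in the fit that left out 12 h, where it was not called (0.127). Sparc, a matrix glycoprotein, rose by 0.54 ± 0.05 (adjusted p = 1.62e-08), and Vegfa, the endothelial growth factor, by 0.36 ± 0.11 (0.018). Without the first library of 60 h the trend of Vegfa was 0.32 and not called (0.0526).

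Some of these genes are close relatives of the 9. Fgf1 had means of 0.738 ± 0.0414 CPM at 12 h and 1.69 ± 0.306 at 60 h (SD, n = 3), with a trend of 0.82 ± 0.23 (SE; edgeR adjusted p = 0.00947), the same direction as Fgf2. Metrn, the paralogue of Metrnl, had a trend of -0.22 ± 0.12 that was not called (0.237), and Clcf1, a cytokine of the gp130 family, rose by 0.33 ± 0.08 (0.00407). Il11, of the same family, had a trend of 0.37 ± 0.20 and was not called (0.219).

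**Figure D5:**
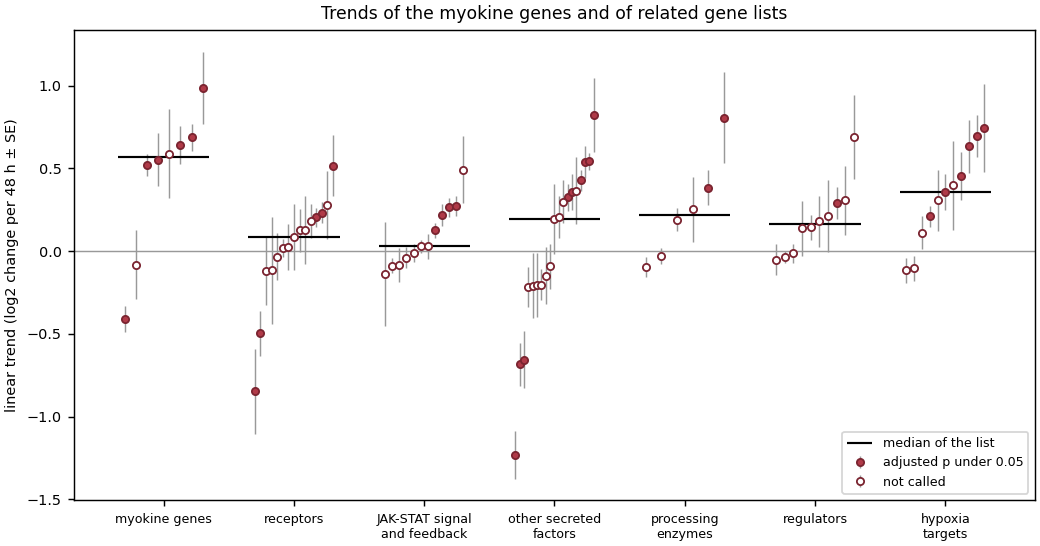
Linear trend (log2 change per 48 h ± SE) of every tested gene of the myokine genes and of 6 related lists; filled points passed the test, and the bar is the median of the list. The median of the myokine genes is 0.57 and that of the receptors 0.09.

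Of 7 enzymes that cut secreted precursors or cleave them at the cell surface 6 were tested, 1 changed over time and 2 had a rising trend, with a list median of 0.22. Over all tested genes these shares were 18.4% and 10.7%. Plat, tissue plasminogen activator, which starts the cascade that cleaves proBDNF, had means of 147 ± 20.4 CPM at 12 h and 205 ± 18.4 at 60 h (SD, n = 3), with a trend of 0.38 ± 0.11 (SE; edgeR adjusted p = 0.0115). Its trend was 0.16 without the 12 h libraries, then not called (0.477). Pcsk6, a proprotein convertase at 1.62 CPM, had a trend of 0.81 ± 0.27 (adjusted p = 0.0373) and lost it in 12 of 27 fits that left out 1 library, at most without the third of 60 h (0.62, adjusted p = 0.137). Pcsk7, another convertase, and Adam10, a protease of the cell surface, had trends of 0.19 and -0.09 and were not called (adjusted p = 0.0597 and 0.299).

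Of 12 known regulators of these genes, 10 were tested, and 1 changed over time and rose along the trend, with a list median of 0.16. Over all tested genes these shares were 18.4% and 10.7%. Hif1a, the oxygen-regulated factor that acts on Apln, had means of 266 ± 26.4 CPM at 12 h and 384 ± 6.49 at 60 h (SD, n = 3), with a trend of 0.29 ± 0.10 (SE; edgeR adjusted p = 0.032). That trend was not called without any single library of 12 h (0.22 to 0.28, adjusted p = 0.0736 to 0.119) or of 60 h (0.26 to 0.27, 0.0727 to 0.0812) or the third of 18 h (0.26, 0.0533), and was 0.12 without the 3 libraries of 12 h (0.625). Ppargc1a, which encodes PGC-1 alpha, the coactivator known to drive Fndc5 and Metrnl in exercised muscle, stood at 0.93 ± 0.27 CPM at 12 h and 1.12 ± 0.261 at 60 h, with a trend of 0.21 ± 0.22 (adjusted p = 0.559). Esrra, its partner on target genes, and Foxo3, a factor of fasting and atrophy, had trends of 0.14 and -0.05 and were not called (0.203 and 0.767).

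Because Apln and Vegfa are known targets of hypoxia-inducible factor, 12 hypoxia targets were set beside Apln. Earlier results of these data had already described hypoxia targets that alternate between collections. Calls of the alternation in this list are therefore not an independent result. Of 11 tested, 9 changed over time and 6 rose along the trend (18.4% and 10.7% of all tested genes), with a list median of 0.36. Pdk1, an inhibitor of pyruvate dehydrogenase, had means of 36.3 ± 1.72 CPM at 12 h and 66.4 ± 6.82 at 60 h (SD, n = 3) (edgeR log2 change 0.87, adjusted p = 1.58e-08). Slc2a1, the glucose transporter GLUT1, changed by 0.71 ± 0.15 (SE; adjusted p = 0.0011) and Bnip3, a mitophagy receptor, by 0.58 ± 0.12 (0.00133), while Apln, at 0.74 ± 0.31, was not called. The alternation was called for 5 of the 11, all of them higher at 12, 24, 36, 48 and 60 h: Bnip3 (0.48, edgeR adjusted p = 0.00112), Ankrd37 (0.62, 0.0153), Egln3 (0.19, 0.00163), Ndrg1 (0.16, 0.029) and Pdk1 (0.33, 0.0482). Of all tested genes 0.772% were called for it. The call of Pdk1 was lost in 21 of 27 fits that left out 1 library (adjusted p = 0.0513 to 0.1). That of Apln had the opposite sign, -0.24 ± 0.16, and was not called (0.735).

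Genes whose time course was most like that of each gene with a change of any shape were ranked by Pearson correlation of the 9 time point means, among 11498 genes. This is a description over 9 means that share libraries and depth, with no test, and a steady rise or fall alone gives high values. Lif lay closest to Pdgfa, a platelet-derived growth factor (0.995), Ccn2, a matricellular factor (0.992), and Inhba, an activin subunit (0.99). For Metrnl the closest were Surf4 (0.996), Ywhah (0.991) and Pdcl3 (0.99), and for Fgf2 they were Tll1 (0.985), Wsb2 (0.984) and Gja1 (0.984). Bdnf was followed by Anxa3 (0.982), Alpk3 (0.976) and Kif5c (0.968), and Apln by Sf1 (0.976), Tram2 (0.976) and Duoxa1 (0.968). For Fndc5 they were Rps27a (0.977), Slc11a1 (0.964) and Otud6b (0.957).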

How the data were processed

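The data are RNA-seq counts of total RNA, freed of ribosomal RNA and sequenced in stranded libraries per the labels' protocols, in 27 libraries of C2C12 myotubes at 9 time points. The authors deposited these as a single table of unnormalized counts, whole numbers of reads for each gene. Trim Galore 0.4.0, cutadapt 1.9.1, featureCounts and the build mm10 are named in the submitters' processing notes. The aligner, annotation release and strand setting were not given in the sources used here. Positions and exon lengths came from GENCODE M21, which matched 20318 genes and left 128 unmatched.

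Libraries were grouped by their titles. Replicate pairs differed beyond sampling noise (lowest chi-square per degree of freedom 5.66). Genes passed filterByExpr with a minimum count of 10 (12687 kept, 7759 left out), were scaled by TMM (factors 0.979 to 1.03) and tested with edgeR 4.0.16 in R 4.3.3. The biological coefficient of variation was 11.8%. The model had the time point as a factor for change of any shape, 60 h against 12 h and steps of 6 h, and a line with 24 h cosine and sine terms for the trend and the rhythm. The alternation was a term added to that line and wave, and its value is the fitted difference between alternate time points. log2 CPM used a prior count of 2. Of the 8 genes tested here, Apln had the fewest reads, at 15 to 56 per library.

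All 9 genes are named, as are up to 4 genes of each list with the smallest p for any change and the 3 genes most like each called gene with a mean of at least 1 CPM. Genes of the lists named beyond these, such as the receptors of each factor and relatives of its family, were chosen after their values were seen. Some genes of the lists are not reported here. The members and lists were chosen with earlier results of these data known. Scripts were tested on simulated counts. Alternatives used DESeq2 1.42.0 and limma 3.58.1 (voom), other scalings and filters, the library number as a block and left-out libraries. Fits without the 9 libraries of a number, the trend without 12 and 18 h and the comparisons around 36 h were added after the data were seen.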

Additional observations from a re-analysis of the deposited data

How the results depend on the processing

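Of the 8 tested genes, 6 changed over time, 6 differed between 60 and 12 h, 6 had a trend and 1 was called at a step of 6 h. Without the 12 h libraries 3 changed over time. Without the libraries numbered 1 and numbered 3, 2 and 3 changed over time, and 3 and 2 differed between 60 and 12 h. Without the libraries of 12 and 18 h 3 had a trend. Leaving out each library in turn gave 4 to 6 for any change, 4 to 6 for 60 against 12 h, 5 to 6 for the trend, 0 to 1 for the steps, and 0 for the rhythm and the alternation. The cause was not tested, though each of these fits also has fewer samples. limma-voom and the fit without a filter did not call Il6 between 60 and 12 h (adjusted p = 0.0604 and 0.0655). At an adjusted p under 0.01, 4 genes differed between 60 and 12 h. Among genes of the related lists, the trend of Plat turned from 0.384 to -0.039 and that of Hif1a from 0.293 to -0.0466 without the libraries of 12 and 18 h. Counts under DESeq2 and median of ratios scaling were those of the main tests. Few reads limit Il6, Il15, Apln and Ostn.

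Same-numbered libraries did not all deviate together: over 11753 genes, 96 of 108 same-numbered pairs correlated above 0.1 (mean 0.446, lowest -0.106) and different-numbered pairs averaged -0.219. Deviations were taken from the mean of each time point, so those of its 3 libraries sum to 0. A same-numbered mean above 0 thus goes with a different-numbered mean below 0. For 25 of 27 libraries the mean correlation with libraries of other time points was highest for their own number. What the numbers stand for is not given, so the main tests did not use them. Differences by number thus stay in the spread behind those p-values. With the replicate number as a block, 7 genes changed over time, 7 differed between 60 and 12 h, 7 had a trend, 2 calls were made at steps and 1 gene alternated. The shares of all tested genes called with the block or with libraries left out are not given here. Counts from those fits thus cannot be set against a background. The added calls were Il6 for any change (adjusted p = 0.0489), Apln for 60 against 12 h (0.77, 0.0128) and for the trend (0.61, 0.0414) and Lif for the alternation (-0.32, 0.0216). The late minus early change was then also called for Fgf2, Metrnl and Apln, and Lif was called between 12 and 36 h (0.72, 0.000933).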
